A study of Mus musculus with 9 samples.

Results

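Mouse colon organoids kept for 60 weeks with inflammatory reagents were compared with untreated organoids taken at 0 weeks. The comparison holds the 6 arrays titled for these times, 3 in each group, of the 9 arrays in the series. The other 3 arrays are organoids given the reagents for 12 weeks, and they are used here to place a 60 weeks value in time. Colon organoids are closed epithelial structures grown in a gel from crypt cells, without the immune cells, vessels and microbes of the colon wall. The labels name neither the reagents nor the strain, age or genotype of the mice. No untreated culture of 60 weeks is among the samples, so the reagents cannot be told apart from the length of culture. The labels do not say whether the 3 arrays of a group come from separate animals, cultures or wells, so every p-value here measures the spread between these arrays, which may be technical. Total RNA was labelled with Cy3 and hybridised to 1 Agilent array per sample. A level is log2 of the processed intensity minus that array's 75th percentile, so a level of 0 equals the 75th percentile of the array and 1 unit is a 2-fold step. Of 20660 genes with a probe, 14015 were above background in at least 1 group, had a value on all 9 arrays and were tested. A gene was called when its p from limma, adjusted over all 14015 genes by Benjamini-Hochberg, was under 0.05.

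The colon epithelium is renewed from stem cells at the crypt base, whose daughters divide under Wnt signals and then mature into absorptive colonocytes, mucus-secreting goblet cells, hormone-secreting enteroendocrine cells and chemosensory tuft cells. Bone morphogenetic proteins (BMPs) oppose the stem cell state as cells move up the crypt. In inflammation, cytokines such as TNF and IL-1 activate the transcription factor NF-kB, which switches on chemokines that attract neutrophils, further cytokines, antimicrobial proteins and its own inhibitors. Interferons act through STAT and IRF factors on antiviral genes and on antigen presentation. Entry into S phase is set by cyclin D kinases, which release E2F factors to switch on the DNA replication genes.

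The cultures carried an epithelial signature in both groups. All 8 epithelial markers were above background on every array of both groups, and their summed level, log2 of the sum of the linear values, was 10.6 to 10.9 at 0 weeks and 10.8 to 10.9 at 60 weeks. Epcam, an epithelial adhesion molecule, had levels of 4.86, 4.74 and 4.83 at 0 weeks and 4.83, 4.52 and 4.89 at 60 weeks, with a log2 difference of -0.06 ± 0.12 and adjusted p = 0.71. Vil1, the actin bundler of the brush border, and Cdx2, the hindgut transcription factor, also had no called difference. Their values were 0.12 ± 0.12 (adjusted p = 0.454) and 0.34 ± 0.20 (adjusted p = 0.223). Krt8, Krt18 and Krt19 were not called either. Of the 8 markers 2 were called higher, Cdh17 by 1.10 ± 0.17 (adjusted p = 0.00151) and Cdh1 by 0.34 ± 0.10 (adjusted p = 0.0304). The call of Cdh1 was lost under 7 alternatives. Of the colon markers, Car1 and Car4 were above background on all 6 arrays, while the posterior genes Hoxa13 and Hoxb13 were at background on all 6, and Muc2, the main goblet cell mucin, had no named probe. Of 6 markers of squamous epithelium, 5 (Krt5, Krt14, Trp63, Krt13 and Krt4) were above background on all 6 arrays, with a summed level of 4.17 to 4.60 at 0 weeks and 4.11 to 4.24 at 60 weeks. Krt14, a basal keratin, fell by 3.02 ± 0.20 on the log2 scale (adjusted p = 1.65e-05), while Krt4, a keratin of the upper layers, rose by 1.05 ± 0.33 (adjusted p = 0.0409, a call lost under 10 alternatives), and Krt5, Trp63 and Krt13 were not called. The pan-leukocyte gene Ptprc and all 4 B cell markers were at background on all 6 arrays, but the T cell genes Cd4 and Cd3e, the neutrophil elastase gene Elane and the endothelial receptor gene Kdr were above it on all 6. Of these, Elane fell by 0.93 ± 0.20, and Cd4 (-0.27 ± 0.13), Cd3e (0.29 ± 0.40) and Kdr (-0.09 ± 0.17) had no called difference. The endothelial gene Vwf and the smooth muscle gene Cnn1 were at background at 0 weeks. They were then at least 7.06 and 2.09-fold higher at 60 weeks. The call of Cnn1 was lost with the slide row as a block. The endothelial gene Pecam1 (-0.28 ± 0.12) and the muscle gene Acta2 (-0.37 ± 0.27) had no called difference. The muscle gene Tagln lacked a value on 0 weeks replicate 2 and was not tested. Its levels were 1.37 and 0.93 at 0 weeks and -0.14, -0.06 and 0.35 at 60 weeks. Of 5 macrophage markers with a probe, 4 were above background on some array of each group, and their summed level was 4.09 to 4.56 at 0 weeks and 5.22 to 5.49 at 60 weeks. The one macrophage marker that rose was Mrc1, the mannose receptor, with levels of 0.78, 0.98 and 0.90 at 0 weeks and 3.66, 3.86 and 3.31 at 60 weeks (adjusted p = 0.000263), while Csf1r, the receptor of a macrophage growth factor, fell by 0.37 ± 0.09 (a call lost under 6 alternatives), and Itgam had no called difference (0.72 ± 0.32). In these bulk samples fewer cells of a type and less RNA per cell cannot be told apart. The part of these markers in the results that follow was not tested.

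Between 49.2% and 52.7% of probes were above background on each array. Across genes, the 0 weeks arrays correlated at 0.994 to 0.996 with each other, the 60 weeks arrays at 0.990 to 0.994, and arrays of different groups at 0.951 to 0.955. The 3 arrays of 0 weeks lay in row 1 of slide 1, 60 weeks replicates 1 and 2 in row 2 of that slide, and 60 weeks replicate 3 alone on slide 2. No row of a slide held both groups, so with the row as a block the comparison could be made only through the 12 weeks arrays, which span both rows, and 1389 genes were called where 4596 were without it. The row and the group cannot be told apart within the 2 groups themselves. Genes whose call was lost in that fit are named as such at the end of each paragraph, beside the list counts it moved most.

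Levels shifted by chromosome. Over all tested genes the median log2 difference of 60 minus 0 weeks was -0.04. On 14 chromosomes other than those named next it lay between -0.20 and -0.04. Chromosome Y, with 7 tested genes and a median of -1.91, is not among them and is described below. Chromosome 19 stood above these 14, with a median of 0.37 over 493 genes and array medians of 0.35, 0.33 and 0.43. On it 43.2% of genes were called higher against 5.27% called lower. Chromosome 10 had a median of 0.28 over 652 genes, with 36.3% higher and 6.29% lower. At 12 weeks against 0 weeks the medians of these chromosomes were -0.03 and -0.08, and in the comparison of 60 with 12 weeks 243 of 493 genes of chromosome 19 were higher and 34 lower. Chromosomes 12, 4, 14 and 5 had 60 weeks medians of 0.22, 0.20, 0.13 and 0.11, beside 12 weeks medians of 0.23, 0.26, 0.20 and 0.17. On these 6 chromosomes together 30.8% of 3880 genes were called higher and 8.45% lower, and on all others 11.3% of 10135 were higher and 19% lower. Counts for the genes outside the 6 chromosomes, a division chosen after seeing the data, are therefore given beside the main gene lists, and the part of the shifts in a list's result was not tested.

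**Figure D1:**
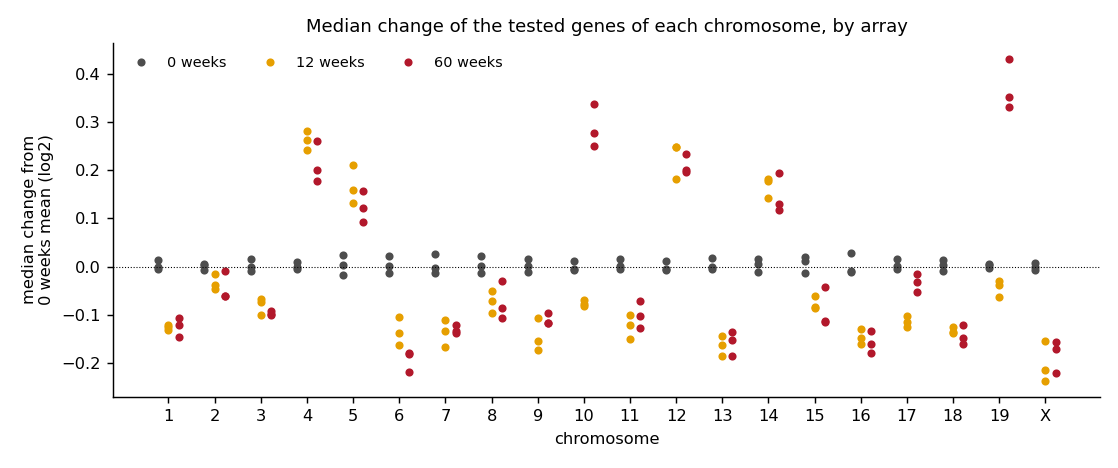
Median change of the tested genes of each chromosome except Y (log2, vertical axis), against each gene's mean at 0 weeks, for each of the 9 arrays. The dotted line is at no change. The 3 arrays of 60 weeks (red) sit at 0.35, 0.33 and 0.43 on chromosome 19, where the 12 weeks arrays (orange) are below 0.

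Of the 14015 genes tested, 4596 (32.8%) were called, 2338 higher at 60 weeks (16.7%) and 2258 lower (16.1%). Of these, 905 were at least 2-fold higher and 720 at least 2-fold lower. The 3 arrays of one group lay wholly above or below the other for 4584 of the 4596 called genes. Over all 14015 tested genes this held for 7915 (56.5%), so it says little beyond the call. Leaving out 1 array at a time gave between 3214 and 6036 called genes, lowest without 0 weeks replicate 2 and highest without 12 weeks replicate 2, which correlated with its group at 0.977 to 0.978. Of 5373 genes that differed between 60 and 12 weeks (38.3% of those tested), 2314 were also called between 60 and 0 weeks. Both comparisons rest on the same 60 weeks arrays, so some overlap is built in.

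**Figure D2:**
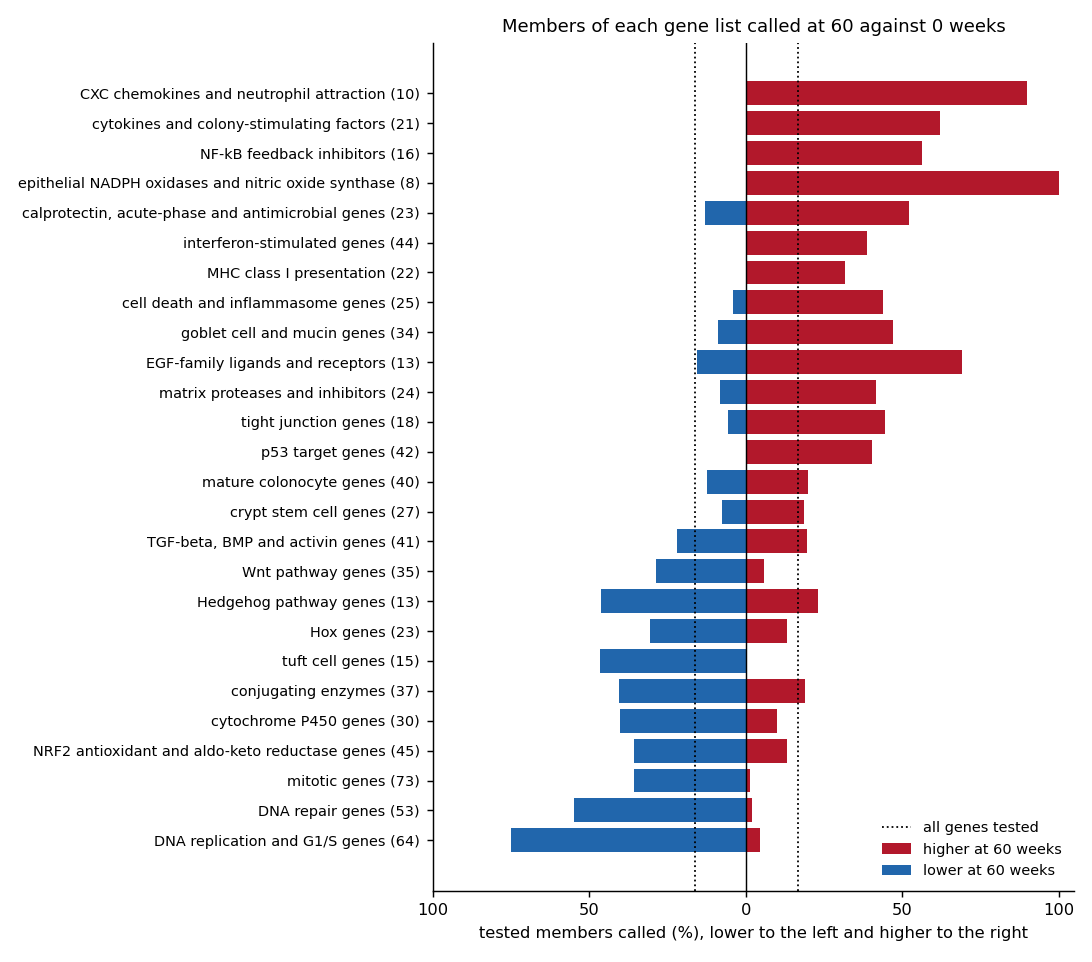
Percentage of each gene list's tested members called higher (right of 0) and lower (left of 0) at 60 weeks against 0 weeks, with dotted lines at the 16.7% and 16.1% of all tested genes. The NADPH oxidase and CXC chemokine lists reach 100% and 90% higher, and the DNA replication list 75% lower.

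The largest rise of a gene measured in both groups was that of Slc16a3, the lactate exporter MCT4. Its levels were -3.56, -3.29 and -3.26 at 0 weeks and 6.81, 7.23 and 6.62 at 60 weeks, a log2 difference of 10.25 ± 0.30 (SE, adjusted p = 2.05e-07), and at 12 weeks they were 5.01, 6.25 and 5.62. Csf2, which encodes the growth factor GM-CSF, rose by 6.70 ± 0.34, and Oas1a, an antiviral oligoadenylate synthetase, by 6.44 ± 0.50. The dynein intermediate chain Dync1i1 rose by 6.04 ± 0.39, of which 3.25 was the difference between 60 and 12 weeks. Chemokine Cxcl5 rose by 5.71 ± 0.23, the iron-binding antimicrobial protein lactoferrin (Ltf) by 5.50 ± 0.41, and the immunoproteasome subunit Psmb8 by 5.42 ± 0.20. Further among the 15 largest rises were Oplah, a 5-oxoprolinase of the glutathione cycle (5.30 ± 0.29), the cyclophilin Ppic (5.16 ± 0.14), the epithelial oxidase Nox1 (5.15 ± 0.45), the siderophore-binding protein Lcn2 (4.97 ± 0.51), the serine protease Prss46 (4.94 ± 0.31), the pantetheinase family member Vnn3 (4.91 ± 0.71), the mitochondrial adenylate kinase Ak4 (4.64 ± 0.11) and Clca3b (4.64 ± 0.38). For Ak4 the other probe gave 3.61. All 15 were called with the 2 groups apart, and only Dync1i1 lay more than 2 log2 units above its 12 weeks mean.

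The largest fall was that of Serpinb7, an intracellular serine protease inhibitor of stratified epithelia. Its levels went from 5.18, 5.14 and 5.18 at 0 weeks to -4.52, -4.27 and -2.74 at 60 weeks, -9.01 ± 0.73 on the log2 scale (adjusted p = 5.42e-05), with -0.13, -2.57 and 0.24 at 12 weeks. Akr1c18, which inactivates progesterone, differed by -8.01 ± 0.99, the mesenchymal homeobox gene Prrx2 by -6.98 ± 0.52, and galectin-1 (Lgals1) by -6.44 ± 0.31. Osteopontin (Spp1), a secreted matrix glycoprotein, differed by -6.33 ± 0.55 and the actin bundler fascin (Fscn1) by -6.21 ± 0.25. Claudin 2 (Cldn2), which forms cation pores in tight junctions, had levels of 2.19, 1.80 and 1.85 at 0 weeks, -1.72, -0.49 and -0.96 after 12 weeks and -4.96, -3.80 and -3.56 after 60 weeks, so each group lay below the one before it. The remaining falls of the 15 were those of the GTPase Rab38 (-6.13 ± 0.54), the sulfotransferase Sult1c2 (-5.63 ± 0.44), the dehydrogenase family member Sdr42e1 (-5.30 ± 0.13), the zinc finger gene Zfp467 (-5.25 ± 0.49), peroxidasin (Pxdn, -5.13 ± 0.40), the glucuronosyltransferase Ugt1a6b (-5.11 ± 0.29), the chromatin remodeller Smarca1 (-5.01 ± 0.54) and the synaptotagmin Syt10 (-5.37 ± 1.76). Probes of a gene did not always give the same size, and the smallest fall among its probes was -4.63 for Cldn2, -2.5 for Zfp467 and -0.87 for Pxdn, whose level at 60 weeks was above background on 2 of 3 arrays. Syt10 had the widest error of the 15, with 60 weeks levels of 1.45, -5.17 and 3.01 and adjusted p = 0.0472, and its call was lost under 11 alternatives. Sdr42e1 and Ugt1a6b differed by 0.01 and -0.17 at 12 weeks against 0 weeks (adjusted p = 0.947 and 0.669), and by -5.31 and -4.94 between 60 and 12 weeks. The calls of Akr1c18 and Smarca1 were lost with the row as a block.

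For a gene that was at background on all 3 arrays of a group, the fold is a lower bound, taken from the bright group's mean over the lowest signal that counted as above background on each dim array, or the dim probe's own signal where that was higher. At 60 weeks 185 genes were above background on all 3 arrays that had been at background on each of the 3 arrays of 0 weeks. Of these, 174 were called, beside 32.8% of all genes, but a choice by detection favours a call. Of the 185, 100 were above background on all 3 arrays of 12 weeks, and 35 on none. Intelectin 1 (Itln1), a secreted lectin that binds microbial sugars, was at least 3022-fold higher at 60 weeks, with levels of 1.91, 4.95 and 2.32 after 12 weeks and 6.77, 6.91 and 6.86 after 60 weeks. Neurotensin (Nts), a gut peptide hormone, was at least 2551-fold higher, with 6.08, 6.81 and 6.24 after 12 weeks and 6.38, 6.29 and 7.06 after 60 weeks, so these groups overlapped. Prl2a1, of the prolactin family, was at least 281-fold higher, the oxidase maturation factor Duoxa2 at least 238-fold, the IL-36 cytokine Il1f6 at least 173-fold and the calprotectin subunit S100a9 at least 125-fold. Tdrp, the adhesion family member Ceacam10, the pro-apoptotic gene Bik and the transcription factor Dach1 were at least 57.7, 44.4, 42.4 and 37-fold higher. These bounds are for the brightest probe, and the other probes of Duoxa2, Tdrp and Dach1 gave smaller log2 differences of 4.89, 4.90 and 4.38.

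The opposite change, from above background on all 3 arrays at 0 weeks to background on all 3 at 60 weeks, was found for 174 genes. Of these, 151 were called, beside 32.8% of all genes, and again the choice by detection favours a call. Of the 174, 71 were above background on all 3 arrays of 12 weeks. Syce2, a component of the meiotic synaptonemal complex, had levels of 2.18, 2.31 and 2.41 at 0 weeks and 1.85, 2.23 and 2.18 at 12 weeks and was at background at 60 weeks, at least 135-fold lower (adjusted p = 4.55e-09). The heparan sulfate proteoglycan Gpc1 was at least 213-fold lower, with 12 weeks levels of 1.96, 1.69 and 1.31. Cathepsin C (Ctsc), a lysosomal protease, was at least 65.5-fold lower than at 0 weeks after levels of 2.13, 1.85 and 2.12 at 12 weeks. The same held for Fam149a (at least 44.4-fold) with 2.32, 2.95 and 2.33 at 12 weeks, and for the phosphatase Lhpp (at least 29.1-fold) with -0.11, -0.19 and -0.30. The membrane protease Tmprss11c was already at background at 12 weeks and was at least 92.5-fold lower at 60 weeks. The p38 kinase activator Map2k6, the sterol transfer protein Gramd1a and the transcription factor Dmrta2 were at least 70.5, 58.5 and 28.8-fold lower. Here too the bounds are for the brightest probe, and the other probes of Lhpp, Fam149a and Gramd1a gave smaller log2 differences of -2.74, -4.12 and -4.43. Ddx3y, an RNA helicase gene of the Y chromosome, had levels of 1.18, 1.06 and 1.20 at 0 weeks and 1.46, 1.49 and 1.43 at 12 weeks and lay at background on each 60 weeks array, at least 60.4-fold lower (adjusted p = 2.56e-09). Of 7 tested genes of the Y chromosome, 2 were lower (28.6%, against 16.1% of all genes) and none higher. Their median log2 difference of 60 minus 0 weeks was -1.91, beside 1.21 at 12 weeks. The array medians were -0.53, 0.01 and 0.93 at 0 weeks and -1.94, -1.65 and -2.04 at 60 weeks.

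Chemokines that attract neutrophils were higher at 60 weeks. Of 10 CXC family members and relatives tested, 9 were called higher and none lower (0 at an unadjusted p under 0.05), where 16.7% of all genes were higher, and their median log2 difference was 2.68 (1.66 to 2.93) against -0.04 for all genes, where parentheses give the range over the alternatives, or 2.39 with genes at background set to their bounds. Cxcl5, a ligand of the neutrophil receptor CXCR2, had levels of 1.59, 1.45 and 1.34 at 0 weeks, 8.72, 7.70 and 8.23 after 12 weeks and 7.01, 7.15 and 7.36 after 60 weeks, and the 60 weeks arrays were below all 12 weeks arrays (log2 -1.05, adjusted p = 0.00974). Cxcl1, another CXCR2 ligand, had levels of 0.37, 0.18 and -0.01 and 2.28, 1.93 and 2.41 and rose by 2.03 ± 0.29. Cxcl2, Cxcl3 and Ppbp, of the same receptor group, were at background at 0 weeks and were then at least 7.1, 16.9 and 10.4-fold higher at 60 weeks. Pf4, a platelet factor of this family, had levels of -0.21, -0.83 and -0.13 at 0 weeks, -2.02, -1.25 and -2.02 after 12 weeks and 2.0, 2.47 and 2.61 after 60 weeks, with the lowest levels at 12 weeks. Cx3cl1, which is membrane-bound and attracts monocytes, rose by 0.63 ± 0.13. Most of this family lies in 1 cluster on chromosome 5, and outside the 6 shifted chromosomes 2 of 3 members were called higher. The fit with the row lost the call of Pf4.

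Cxcl2 carries matches to the NF-kB motif in its promoter, shown here over 300 bases around its start in RefSeq GRCm38.p6, with the matches in capitals, followed by that of Nfkbia, which encodes the inhibitor IkB-alpha. Cxcl2 lies at chr5:90903649-90903948 on the plus strand and Nfkbia at chr12:55492598-55492897 on the minus strand.
Cxcl2: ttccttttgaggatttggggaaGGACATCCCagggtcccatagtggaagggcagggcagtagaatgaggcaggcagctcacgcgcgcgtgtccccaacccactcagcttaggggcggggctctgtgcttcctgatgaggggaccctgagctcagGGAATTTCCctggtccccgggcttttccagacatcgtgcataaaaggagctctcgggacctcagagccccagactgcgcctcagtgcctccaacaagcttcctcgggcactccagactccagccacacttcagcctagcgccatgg
Nfkbia: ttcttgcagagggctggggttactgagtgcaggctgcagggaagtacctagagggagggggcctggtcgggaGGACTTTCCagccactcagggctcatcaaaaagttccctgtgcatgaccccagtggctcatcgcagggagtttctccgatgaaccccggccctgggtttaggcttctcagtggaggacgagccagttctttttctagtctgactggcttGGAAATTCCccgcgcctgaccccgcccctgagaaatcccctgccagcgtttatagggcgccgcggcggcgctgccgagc
The letters searched were GGGANNTCC and GGANTTTCC on both strands, and matches may overlap. They were present in 4 of 7 CXC promoters in the sequence table (57.1%) and in 7 of 14 promoters of the NF-kB inhibitors (50%), against 884 of 11202 promoters of tested genes (7.89%). In the cytokine list 2 of 14 promoters (14.3%) held one, and in the oxidase list, whose tested members were all called higher, 0 of 5 did. Promoter counts here and below are counts of genes, and a gene counts as holding a match if any of its promoters does. A match describes these letters and not binding.

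Cytokines rose as well, with 13 of 21 tested members called higher and none lower by limma (1 lower at an unadjusted p under 0.05), a median of 1.41 (0.86 to 1.47), and 11 of 16 outside the shifted chromosomes. Csf2, which supports granulocytes and macrophages, had levels of -3.96, -4.09 and -4.41 at 0 weeks, 0.95, 1.66 and 0.39 after 12 weeks and 3.09, 2.32 and 2.23 after 60 weeks, each group above the one before. Tnf, the archetypal activator of NF-kB, had levels of 0.92, 0.67 and 0.64, 2.55, 2.25 and 2.15 and 2.85, 2.78 and 2.97 in the same order and rose by 2.13 ± 0.13 (adjusted p = 1.41e-05). Lymphotoxin beta (Ltb), which shapes lymphoid tissue, had levels of -0.26, -0.90 and -0.81, 0.91, 1.38 and 0.38 and 3.30, 4.35 and 3.46, and its 60 weeks level was 2.81 above that of 12 weeks (log2, adjusted p = 0.000611). The alarmin Il1a rose by 3.30 ± 0.33, the B cell survival factor Tnfsf13b by 2.91 ± 0.24 and the IL-6 family cytokine Lif by 1.41 ± 0.14. The IL-36 cytokine Il1f9 was at background at 0 weeks and was then at least 16-fold higher at 60 weeks. Among CC chemokines 4 of 9 were called higher. Ccl5, which attracts T cells, had levels of -3.33, -3.46 and -3.08 at 0 weeks, -2.85, -3.29 and -3.13 after 12 weeks and -0.58, -0.38 and -0.51 after 60 weeks, with no overlap between 60 weeks and either other group. It differed by 0.20 at 12 weeks (adjusted p = 0.295) and by 2.80 ± 0.14 at 60 weeks (adjusted p = 5.26e-06). Ccl27a rose by 1.16 ± 0.14. Under the row block the counts were 8 of the cytokines higher.

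**Figure D3:**
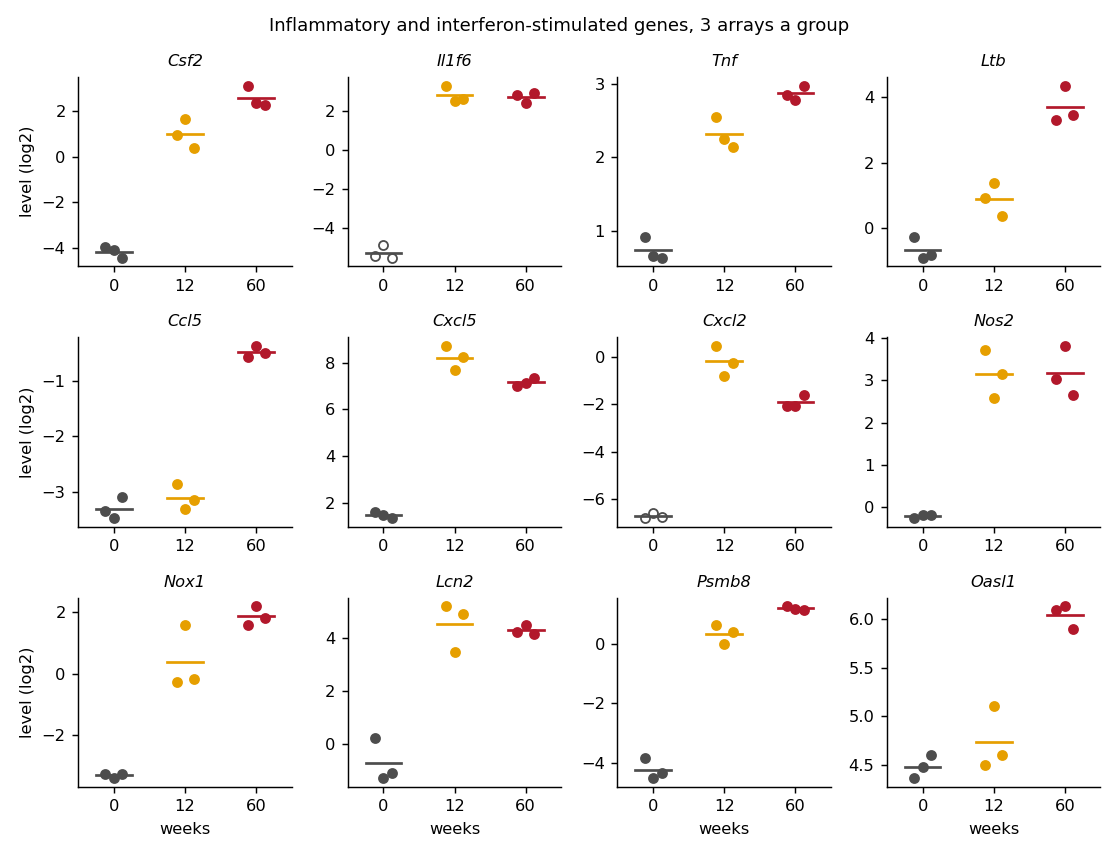
Levels (log2 of intensity relative to the array's 75th percentile, vertical axes) of 12 inflammatory and interferon-stimulated genes on the 3 arrays of 0, 12 and 60 weeks (horizontal axes), with bars at group means and open circles for groups not above background on every array. Ccl5 and Oasl1 show 12 weeks arrays near those of 0 weeks, at log2 differences of 0.20 and 0.26.

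The inhibitors that NF-kB switches on against itself were higher in 9 of 16 cases and lower in none (1 at an unadjusted p under 0.05), with a median of 0.61 (0.54 to 0.94), and in 5 of 12 outside the shifted chromosomes. Nfkbia, whose product holds NF-kB in the cytoplasm, had levels of 5.05, 5.24 and 5.23 at 0 weeks and 6.13, 6.18 and 6.20 at 60 weeks and rose by 0.99 ± 0.15. Tnfaip3, the ubiquitin-editing enzyme A20, had levels of 2.5, 2.38 and 2.35 and 4.05, 3.98 and 4.08 and rose by 1.63 ± 0.18 (adjusted p = 0.000329). The RNase gene Zc3h12a, whose product degrades cytokine messages, rose by 2.67 ± 0.20, Nfkbiz by 1.22 ± 0.15 and Nfkbid by 0.98 ± 0.13. The A20-binding proteins Tnip1 and Tnip2 rose by 0.54 ± 0.10 and 0.89 ± 0.09. Between 60 and 12 weeks 1 of the 16 was higher (Tnip2) and 2 were lower. The NF-kB subunit gene Nfkb2 lay 0.81 above its 12 weeks level (adjusted p = 0.00037) and 0.87 ± 0.09 above that of 0 weeks, and it lies on chromosome 19.

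All 8 tested genes of the epithelial NADPH oxidases and nitric oxide synthase were called higher, with a median of 1.89 (1.40 to 1.98), including 7 of 7 outside the shifted chromosomes. Nox1, the catalytic subunit of the colonic superoxide source, had levels of -3.23, -3.38 and -3.26 at 0 weeks, -0.27, 1.59 and -0.18 after 12 weeks and 1.57, 2.19 and 1.82 after 60 weeks. Its organiser Noxo1 rose by 1.36 ± 0.10 and the shared membrane subunit Cyba by 1.49 ± 0.12. Duoxa2, needed for the peroxide-producing enzyme DUOX2 to leave the endoplasmic reticulum, was at background at 0 weeks, with levels of 3.47, 3.79 and 3.01 after 12 weeks and 3.19, 3.32 and 2.95 after 60 weeks. Nos2, the inducible nitric oxide synthase, had levels of -0.25, -0.17 and -0.17 at 0 weeks and 3.03, 3.81 and 2.65 at 60 weeks and rose by 3.36 ± 0.34 (adjusted p = 0.000189). The phagocyte oxidase subunit Ncf4 had its lowest levels at 12 weeks (-5.04, -4.17 and -5.25), below -3.16, -4.11 and -3.35 at 0 weeks and -1.80, -1.68 and -1.73 at 60 weeks. With the row as a block 5 oxidase genes were higher. Blocking on the row ended the call of Ncf4.

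Antimicrobial and acute-phase genes were called higher in 12 and lower in 3 of 23 cases, with a median of 1.30 (0.57 to 1.67). S100a9, which forms calprotectin with S100a8, was at background at 0 weeks and had levels of 6.50, 5.0 and 6.75 after 12 weeks and 1.93, 2.54 and 2.22 after 60 weeks, so the 60 weeks arrays were below those of 12 weeks (log2 -3.85, adjusted p = 0.000319). Lcn2, which withholds iron from bacteria, had levels of 0.24, -1.26 and -1.08 at 0 weeks and 4.22, 4.46 and 4.13 at 60 weeks. Ltf had levels of -2.36, -2.81 and -3.58 and 2.77, 2.74 and 2.24, and the complement factor gene Cfb rose by 2.80 ± 0.33. The bactericidal lectin Reg3g was at background at 0 weeks and was then at least 5.78-fold higher at 60 weeks. Itln1 was the member that lay furthest above its 12 weeks level, by 3.79 (adjusted p = 0.00381). Counts with the row as a block were 6 of the antimicrobial genes higher and 0 lower, and the call of S100a8 was lost. The lower antimicrobial genes numbered 1 without 0 weeks replicates 1 or 3 and 1 without 60 weeks replicates 1 or 2.

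Receptors and sensors changed by member. Among cytokine receptors, kinases and Socs genes 16 of 43 were called higher (37.2%) and 7 lower (16.3%), against 16.7% and 16.1% of all genes. Their lower share was thus near that of all genes. The oncostatin M receptor Osmr was at background at 0 weeks and was then at least 4.58-fold higher at 60 weeks, with 12 weeks levels of -0.34, -0.69 and -0.99 above those of 60 weeks (-2.38, -2.5 and -2.75). The decoy receptor Tnfrsf11b (osteoprotegerin) rose by 3.00 ± 0.15, Il11ra1 by 2.05 ± 0.11, the interferon gamma receptor chain Ifngr1 by 1.02 ± 0.14 and the kinase Jak1 by 0.88 ± 0.09. Il17re, part of the IL-17C receptor, fell by 1.27 ± 0.14. Among 21 pattern recognition receptors 6 were higher and 6 lower (28.6% each). Of the flagellin sensors, the inflammasome sensor Nlrc4 rose by 1.80 ± 0.11, with levels of -1.36, -1.72 and -1.60 and 0.28, 0.16 and 0.27, and the surface receptor Tlr5, at -2.58, -2.57 and -2.70 at 0 weeks, lay at background at 60 weeks, at least 4.45-fold lower. The peptidoglycan sensor Nod2 rose by 1.36 ± 0.12, and its relative Nod1 fell by 2.66 ± 0.31. The prostaglandin list had 1 of 12 higher (8.33%) and 4 lower (33.3%). Its riser was Ptgs2, the inducible cyclooxygenase, with levels of 0.31, 0.30 and 0.07 at 0 weeks, 3.96, 3.46 and 3.59 after 12 weeks and 2.61, 2.27 and 2.28 after 60 weeks, while the prostaglandin D synthase Ptgds fell by 3.48 ± 0.11 and Ptgr1, which inactivates prostaglandins, by 1.54 ± 0.20. The fit with the row gave 8 of the receptor and Socs genes higher and 1 lower, 2 of the pattern receptors higher and 1 lower and 2 of the prostaglandin genes lower, and lost the call of Nod1. The lower receptor and Socs genes numbered 4 without 0 weeks replicate 3, 11 without 12 weeks replicate 2 and 4 without 60 weeks replicate 2. The lower prostaglandin genes numbered 2 without 0 weeks replicates 1 or 2 and 2 without 60 weeks replicates 1 or 2.

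Of 44 interferon-stimulated genes tested, 17 were called higher and none lower (2 at an unadjusted p under 0.05), with a median of 0.73 (0.56 to 1.39) and 9 of 29 outside the shifted chromosomes. The higher count ranged from 10 to 25 when 1 array was left out, beside 8 to 9 of 10 for the CXC list. Oas1a had levels of -3.36, -3.31 and -1.32 at 0 weeks and 3.96, 3.78 and 3.61 at 60 weeks, with 0 weeks replicate 3 the highest of its group. Oasl1, an antiviral protein of the same family, had levels of 4.37, 4.48 and 4.60 at 0 weeks, 4.50, 5.10 and 4.61 after 12 weeks and 6.10, 6.13 and 5.90 after 60 weeks, and differed by 0.26 at 12 weeks (adjusted p = 0.24) and 1.56 ± 0.16 at 60 weeks (adjusted p = 0.000232). Irf1, a transcription factor of the interferon gamma response, had levels of 3.91, 3.80 and 3.89, 4.47, 3.74 and 4.12 and 4.85, 4.92 and 4.94 and rose by 1.03 ± 0.17. The antiviral enzyme viperin (Rsad2) was at background at 0 weeks and was then at least 2.09-fold higher at 60 weeks. Oas1a belongs to a family of close copies, so its probes may also bind other members. Under the row block the counts were 9 of the interferon-stimulated genes higher. The higher interferon-stimulated genes numbered 11 without 0 weeks replicate 2 and 10 without 60 weeks replicate 1.

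The Oas1a promoter, at chr5:120907476-120907775 on the minus strand of GRCm38.p6, is shown with matches to the interferon response element letters TTCNNTTTC in capitals.
Oas1a: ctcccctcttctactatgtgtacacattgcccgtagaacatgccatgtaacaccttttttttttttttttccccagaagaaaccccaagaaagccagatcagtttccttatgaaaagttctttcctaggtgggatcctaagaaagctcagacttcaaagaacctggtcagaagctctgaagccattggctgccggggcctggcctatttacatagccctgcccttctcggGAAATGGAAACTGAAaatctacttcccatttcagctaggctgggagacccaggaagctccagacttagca
These letters, on either strand, were in 19 of 33 interferon-stimulated promoters in the table (57.6%) and in 952 of 11202 promoters of tested genes (8.5%). They were in 7 of 13 promoters of members called higher (53.8%) and in 12 of 20 of members not called (60%).

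Class I antigen presentation had 7 of 22 tested genes called higher and none lower (0 at an unadjusted p under 0.05), a median of 0.12 (0.07 to 0.21), and 11 members higher at 60 than at 12 weeks. The immunoproteasome subunit Psmb8 had levels of -3.85, -4.52 and -4.35 at 0 weeks, 0.61, -0.01 and 0.38 after 12 weeks and 1.26, 1.14 and 1.14 after 60 weeks, and Psmb10 and the proteasome activator Psme2 rose by 0.89 ± 0.18 and 0.72 ± 0.11. H2-Q1, a nonclassical class I gene of a family of close copies, had levels of -0.33, -0.36 and -0.70 at 0 weeks, -1.64, -0.84 and -1.23 after 12 weeks and 0.62, 0.78 and 0.55 after 60 weeks. Of 5 class II genes tested, 2 rose. H2-Eb1, a class II beta chain, was above background on 2 of 3 arrays at 0 weeks and had levels of -3.01, -3.59 and -4.87 there and 0.51, 0.60 and 0.24 at 60 weeks, with 2.92 of the difference arising between 12 and 60 weeks. The other was Cd74, the invariant chain, at -4.03, -4.21 and -4.23 and -2.17, -0.35 and -2.28. Blocking on the row gave 3 of the class I genes higher and 1 of the class II genes higher and ended the calls of H2-Q1 and Cd74.

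Of 25 cell death and inflammasome genes, 11 were called higher and 1 lower, with 7 of 21 higher outside the shifted chromosomes. The ATP-gated channels P2rx4 and P2rx7 had the lowest adjusted p of the list. P2rx7, which triggers inflammasome activation, was above background on 1 of 3 arrays at 0 weeks, with levels of -4.57, -5.12 and -5.76, and reached -0.85, -0.11 and -1.33 after 12 weeks and 1.57, 1.54 and 1.78 after 60 weeks, a difference from 0 weeks of 6.78 ± 0.36 for this probe and 3.88 at the least among its 3 probes. P2rx4 had levels of 3.71, 3.76 and 3.86 at 0 weeks, 4.01, 4.09 and 3.79 after 12 weeks and 5.76, 5.81 and 5.77 after 60 weeks, a difference of 0.19 at 12 weeks (adjusted p = 0.172) and of 2.0 ± 0.10 at 60 weeks (adjusted p = 5e-06). Both lie on chromosome 5, whose median was 0.11. Casp4, the sensor of cytosolic lipopolysaccharide, rose by 1.68 ± 0.17, and the necroptosis kinase Ripk3 by 0.98 ± 0.09. The pore former Gsdmd rose by 0.81 ± 0.12, and the anti-apoptotic gene Bcl2 fell by 0.72 ± 0.13. Counts with the row as a block were 7 of the cell death genes higher, and the calls of Gsdmd and Bcl2 were lost.

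Secretory genes were higher in part. Of 34 goblet cell and mucin genes, 16 were called higher and 3 lower, with a median of 0.58 (0.32 to 0.64) and 14 of 28 higher outside the shifted chromosomes. The transmembrane mucin gene Muc13 had levels of 3.46, 3.29 and 2.76 at 0 weeks, 7.11, 6.73 and 7.24 after 12 weeks and 7.02, 7.11 and 7.25 after 60 weeks and rose by 3.96 ± 0.20. Muc1, another transmembrane mucin, was at background at 0 weeks and was then at least 19.96-fold higher at 60 weeks, where it lay 2.10 above its 12 weeks level. Creb3l4, a transcription factor of secretory cells, rose by 2.42 ± 0.13, the fucosyltransferase Fut2 by 2.0 ± 0.23, the secreted goblet cell protein Clca1 by 1.38 ± 0.24 and the calcium pump Atp2c2 by 3.66 ± 0.42. Of 13 enteroendocrine genes, 3 were called higher (23.1%), against 16.7% of all genes. They were Nts, the hormone gene ghrelin (Ghrl), at -3.80, -3.80 and -4.05 and -0.44, -0.44 and -0.48, and the prohormone-processing enzyme Cpe, at 4.80, 4.89 and 4.68 and 6.35, 6.44 and 5.98. Chga and Tff3, the usual markers of enteroendocrine and goblet cells, Slc26a3, of colonocytes, and Olfm4, of stem cells, were not among the tested genes. The fit with the row gave 6 of the goblet cell genes higher and 1 lower, and lost the calls of Atp2c2 and Cpe. The lower goblet cell genes numbered 7 without 12 weeks replicate 2.

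Of 15 tuft cell genes tested, 7 were called lower (46.7%, against 16.1% of all genes) and none higher (0 at an unadjusted p under 0.05). Their median was -0.60 (-0.87 to -0.13), and 3 of 9 were lower outside the shifted chromosomes. A further 17 genes of the list, among them Trpm5, Pou2f3, Gnat3 and Avil, were too dim to test. Whether tuft cells became fewer was not tested. Alox5ap, which serves leukotriene synthesis, had levels of 1.19, 1.14 and 1.21 at 0 weeks, -3.68, -3.34 and -3.26 after 12 weeks and -1.30, -1.61 and -1.21 after 60 weeks, so 60 weeks lay between the other groups. The tuft cell kinase gene Dclk1 had levels of -2.53, -2.75 and -2.45 at 0 weeks and -3.38, -3.60 and -3.90 at 60 weeks and fell by 1.05 ± 0.15. Cd24a, a surface glycoprotein shared with progenitor cells, had levels of 2.61, 2.67 and 2.72 at 0 weeks, 3.30, 3.72 and 3.39 after 12 weeks and 1.40, 1.28 and 1.31 after 60 weeks. Plcg2 fell by 1.29 ± 0.23, and the IL-25 receptor gene Il17rb was at background at 60 weeks, at least 2.15-fold lower. Under the row block the counts were 3 of the tuft cell genes lower, and the calls of Plcg2 and Il17rb were lost.

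Colonocyte and stem cell genes showed no common direction. Of 40 mature colonocyte genes 8 were called higher (20%) and 5 lower (12.5%), near the 16.7% and 16.1% of all genes. Their median was -0.08, beside 1.09 at 12 weeks, when 24 were higher. In the direct comparison 21 were lower at 60 than at 12 weeks and 3 higher. Krt20, the keratin of mature colonocytes, had levels of 2.35, 2.21 and 1.97 at 0 weeks, 4.70, 2.59 and 5.18 after 12 weeks and 0.68, 1.05 and 0.88 after 60 weeks, and the 60 weeks difference from 0 weeks was -1.31 ± 0.57 (adjusted p = 0.113). The carbonic anhydrase Car1 went from 1.86, 2.13 and 0.11 to -1.58, -1.13 and -1.39 (log2 -2.73 ± 1.16, adjusted p = 0.107), with 6.42, 2.37 and 7.4 at 12 weeks. The microvillar genes Ceacam20 and Slc9a2 rose by 2.70 ± 0.28 and 1.32 ± 0.14, and Emp1 fell by 1.13 ± 0.10. Of 27 crypt stem cell genes 5 were higher (18.5%) and 2 lower (7.41%), against the same shares of all genes. Lgr5, the Wnt-amplifying receptor of stem cells, had levels of 2.0, 1.72 and 1.91 at 0 weeks and 2.40, 2.99 and 2.46 at 60 weeks (log2 0.74 ± 0.65, adjusted p = 0.417), and Ascl2 was at background in both groups. Prom1 rose by 0.90 ± 0.14, and the Wnt target Sp5, at background at 0 weeks, was at least 12.9-fold higher, with levels of 1.29, -0.11 and 0.30 after 12 weeks and -1.05, -1.39 and -0.70 after 60 weeks. Ly6a, a marker of regenerating epithelium, differed by 0.26 ± 0.15 (adjusted p = 0.228), and Myc by 0.20 ± 0.18 (adjusted p = 0.419). Blocking on the row gave 5 of the colonocyte genes higher and 3 lower and 2 of the stem cell genes higher and 0 lower. The lower colonocyte genes numbered 10 without 12 weeks replicate 2. The lower stem cell genes numbered 0, 0 and 1 without 0 weeks replicates 1, 2 and 3 in turn, 4 and 1 without 12 weeks replicates 2 and 3 in turn and 0, 1 and 0 without 60 weeks replicates 1, 2 and 3 in turn.

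Of 41 TGF-beta, BMP and activin genes 8 were higher (19.5%) and 9 lower (22%), near the 16.7% and 16.1% of all genes, with 3 of 28 higher and 6 lower outside the shifted chromosomes. Some members lay below both earlier groups at 60 weeks. The ligand gene Bmp2 had levels of 0.65, 0.69 and 0.60 at 0 weeks, 0.45, 1.04 and 0.65 after 12 weeks and -2.19, -1.85 and -2.61 after 60 weeks, a difference from 0 weeks of 0.06 at 12 weeks (adjusted p = 0.827) and -2.87 ± 0.21 at 60 weeks (adjusted p = 2.95e-05). Bmp4 fell in both steps, with levels of 3.24, 2.98 and 2.88, 2.07, 1.86 and 2.02 and -0.26, -0.45 and -0.11. The Id genes, direct targets of BMP signals, were lower too. Id1 had levels of 4.51, 4.77 and 4.49 at 0 weeks, 4.58, 3.93 and 4.71 after 12 weeks and 2.08, 2.14 and 2.35 after 60 weeks, with no overlap between 60 weeks and the other groups. Id3 was highest at 12 weeks, with 1.25, 1.69 and 1.37, 2.52, 1.96 and 2.71 and -0.18, -0.38 and -0.43, and Id2 fell by 1.88 ± 0.30, with its 12 weeks mean within 0.09 of that of 60 weeks. The inhibitory gene Smad7 fell by 1.29 ± 0.11, and Bmp3, which antagonises other BMPs, rose by 3.40 ± 0.16. Counts with the row as a block were 1 of the TGF-beta and BMP genes higher and 5 lower, and the call of Id3 was lost. The higher TGF-beta and BMP genes numbered 4 without 0 weeks replicate 3 and 4 and 5 without 60 weeks replicates 1 and 3 in turn.

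**Figure D4:**
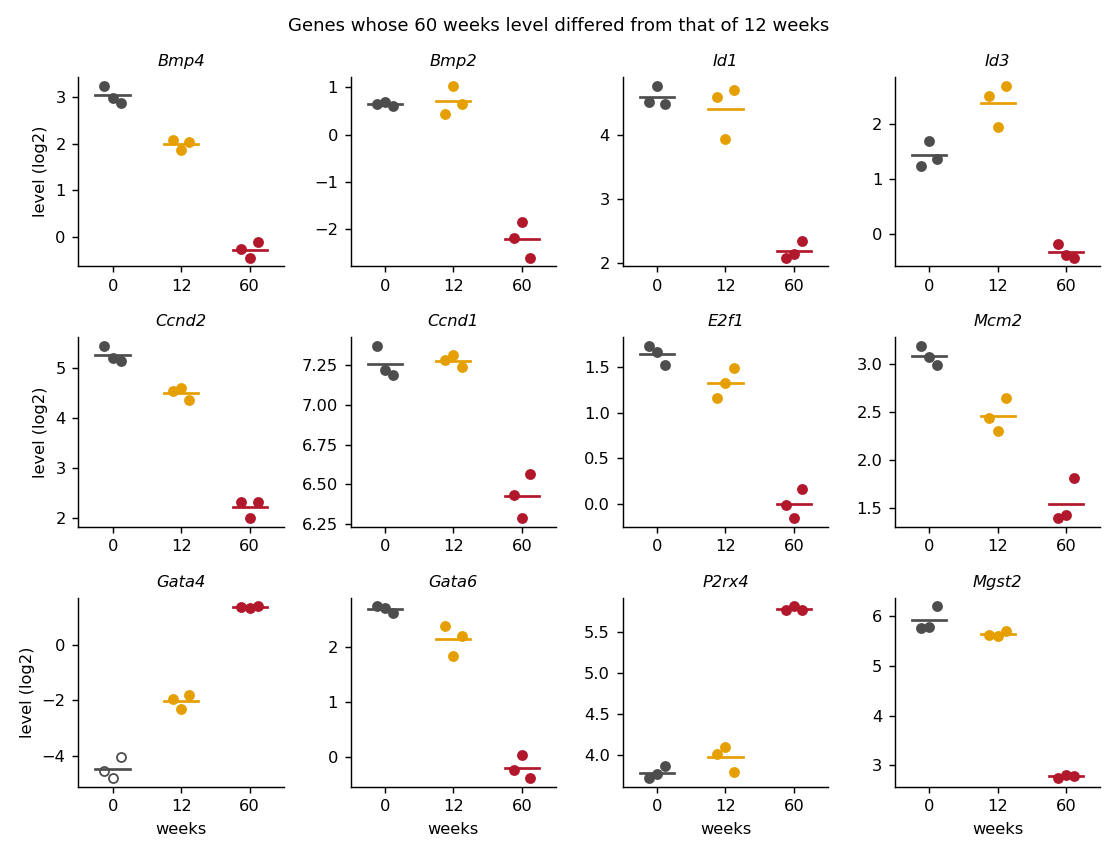
Levels (log2 of intensity relative to the array's 75th percentile, vertical axes) of 12 genes on the 3 arrays of 0, 12 and 60 weeks (horizontal axes), chosen because their 60 weeks level differed from that of 12 weeks, with bars at group means and open circles for groups not above background on every array. Bmp2, Id1 and Ccnd1 show 12 weeks arrays near those of 0 weeks, and Gata4 and P2rx4 are higher at 60 weeks than on all 6 other arrays.

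Of 35 Wnt pathway genes 2 were higher and 10 lower. The ligand gene Wnt4 had levels of 2.30, 2.10 and 2.25 at 0 weeks and -3.03, -3.51 and -1.30 at 60 weeks and fell by 4.84 ± 0.59, and Wnt5b and Wnt7a went from -1.02, -0.88 and -1.49 and -0.37, -0.24 and -0.53 at 0 weeks to -3.11, -3.09 and -3.72 and -1.23, -2.05 and -2.15 at 60 weeks, with 12 weeks levels above both. The pathway's transducer Ctnnb1 had levels of 5.93, 5.96 and 5.89 and 6.24, 6.23 and 6.25, a difference of 0.31 ± 0.09; its call was lost under 14 alternatives. In the Hedgehog list of 13 genes 3 were higher and 6 lower, with 1 and 6 of 10 outside the shifted chromosomes. The ligand gene Dhh was at background at 0 weeks and was then at least 7.73-fold higher at 60 weeks, with levels of 2.46, 3.11 and 2.33 after 12 weeks and -1.5, -2.11 and -1.75 after 60 weeks, and Disp1, which releases the ligands, was at background at 60 weeks, at least 5.86-fold lower. Of 13 genes of EGF-family ligands, receptors and their regulators, 9 were higher and 2 lower, with a median of 0.72 (0.67 to 0.80). The receptor Egfr rose by 1.31 ± 0.16 and Erbb3 by 1.03 ± 0.20, the ligands betacellulin (Btc) and epigen (Epgn) by 1.53 ± 0.10 and 1.82 ± 0.25, and the feedback inhibitor Errfi1 by 1.43 ± 0.10. Btc levels were -1.80, -1.89 and -1.70 at 0 weeks, 0.39, 0.23 and 0.52 after 12 weeks and -0.20, -0.29 and -0.31 after 60 weeks. Outside the shifted chromosomes 2 of 6 EGF-family genes were higher and 2 lower. The fit with the row gave 0 of the Wnt genes higher and 3 lower, 1 of the Hedgehog genes higher and 2 lower and 5 of the EGF-family genes higher and 0 lower, and lost the call of Wnt7a. The higher Wnt genes numbered 1, 1 and 0 without 0 weeks replicates 1, 2 and 3 in turn, 4 and 1 without 12 weeks replicates 2 and 3 in turn and 1 and 4 without 60 weeks replicates 1 and 2 in turn. The lower Wnt genes numbered 5, 6 and 6 without 0 weeks replicates 1, 2 and 3 in turn and 5 and 6 without 60 weeks replicates 1 and 2 in turn. The lower Hedgehog genes numbered 3 without 60 weeks replicate 2.

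DNA replication genes were lower at 60 weeks. Of 64 replication and G1/S genes tested, 48 were called lower and 3 higher, where 16.1% of all genes were lower, with a median of -0.93 (-1.06 to -0.87) against -0.04 for all genes. With the row as a block 40 were lower, and with 1 array left out 44 to 50 were lower. Outside the shifted chromosomes 35 of 42 were lower. The comparison of 60 with 12 weeks had 44 lower and 1 higher. The array medians of the list were -0.30, -0.30 and -0.18 at 12 weeks and -1.04, -1.0 and -0.73 at 60 weeks, so the array with the smallest fall at 60 weeks lay below all 3 of 12 weeks. E2f1, which drives these genes, had levels of 1.73, 1.67 and 1.53 at 0 weeks, 1.17, 1.33 and 1.49 after 12 weeks and -0.02, -0.16 and 0.17 after 60 weeks and fell by 1.65 ± 0.12 (adjusted p = 3.75e-05). All 7 Mcm genes of the list, Mcm2 to Mcm7 of the replicative helicase and its partner Mcm10, were lower. Mcm2 had levels of 3.18, 3.07 and 2.99 at 0 weeks and 1.40, 1.43 and 1.81 at 60 weeks, Mcm3 4.92, 4.94 and 4.92 and 3.26, 3.30 and 3.75, and Mcm6 6.42, 6.59 and 6.62 and 4.92, 5.04 and 5.36. Under the row block the counts were 0 of the replication genes higher. The higher replication genes numbered 1 without 0 weeks replicate 1 and 1 without 60 weeks replicates 1 or 2.

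The sliding clamp gene Pcna had levels of 6.07, 6.16 and 6.12 at 0 weeks, 5.90, 5.80 and 6.01 after 12 weeks and 4.90, 4.90 and 5.29 after 60 weeks and fell by 1.08 ± 0.13. The origin-licensing genes Cdt1 and Cdc6 fell by 0.98 ± 0.16 and 0.77 ± 0.13, and the helicase component Cdc45 by 1.34 ± 0.11. Nucleotide supply genes were among the members: thymidine kinase (Tk1) fell by 1.17 ± 0.12 and the ribonucleotide reductase subunits Rrm1 and Rrm2 by 1.01 ± 0.11 and 1.19 ± 0.10. The ligase gene Lig1, which seals nicks, fell by 1.27 ± 0.11, and Dtl, which marks Cdt1 for destruction, by 1.75 ± 0.15. Cyclin E1 (Ccne1), with Orc3 and Cdc25a, was called higher, at 0.57 ± 0.10. The calls of Ccne1, Orc3 and Cdc25a were lost under 2, 7 and 10 alternatives. Upstream, cyclin D2 (Ccnd2) had levels of 5.45, 5.21 and 5.14 at 0 weeks, 4.55, 4.60 and 4.36 after 12 weeks and 2.32, 1.99 and 2.32 after 60 weeks. Cyclin D1 (Ccnd1) had levels of 7.37, 7.22 and 7.19, 7.28, 7.31 and 7.24 and 6.43, 6.29 and 6.56, a difference of 0.02 at 12 weeks (adjusted p = 0.893) and of -0.83 ± 0.10 at 60 weeks (adjusted p = 0.000532).

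Promoters of Mcm6, at chr1:128359656-128359955 on the minus strand, and Mcm3, at chr1:20820263-20820562 on the minus strand of GRCm38.p6, are shown because their genes fell and hold E2F letters near the start, in capitals.
Mcm6: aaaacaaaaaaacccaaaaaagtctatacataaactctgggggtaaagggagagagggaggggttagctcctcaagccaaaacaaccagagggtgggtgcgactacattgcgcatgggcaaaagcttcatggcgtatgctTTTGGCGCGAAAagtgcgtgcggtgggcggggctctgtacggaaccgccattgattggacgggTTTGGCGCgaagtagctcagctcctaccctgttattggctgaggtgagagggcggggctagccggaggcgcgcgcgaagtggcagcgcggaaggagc
Mcm3: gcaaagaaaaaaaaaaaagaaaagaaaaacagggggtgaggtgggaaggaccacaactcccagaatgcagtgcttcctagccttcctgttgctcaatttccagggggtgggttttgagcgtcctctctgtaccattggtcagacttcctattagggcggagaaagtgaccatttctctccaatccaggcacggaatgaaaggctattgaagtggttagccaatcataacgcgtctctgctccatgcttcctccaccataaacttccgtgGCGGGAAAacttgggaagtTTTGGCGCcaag
The letters TTTGGCGC, TTTCCCGC, TTTGCCGC and TTTCGCGC were searched on both strands. They were found in 22 of 54 replication gene promoters in the table (40.7%) and in 479 of 11202 promoters of tested genes (4.28%). Among the replication genes they were in 15 of 39 promoters of members called lower (38.5%) and in 5 of 12 of members not called (41.7%).

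Mitotic genes were lower in part. Of 73 tested, 26 were lower and 1 higher, with a median of -0.31 (-0.69 to -0.21). Blocking on the row gave 13 of the mitotic genes lower. The lower mitotic genes numbered 15 and 17 without 0 weeks replicates 2 and 3 in turn and 14 without 60 weeks replicate 1. The kinetochore genes Cenpk, Nuf2 and Spc24 fell by 1.21 ± 0.11, 0.97 ± 0.14 and 1.05 ± 0.16, and the checkpoint gene Mad2l1 by 0.99 ± 0.11. Ect2, needed for cytokinesis, had levels of 3.44, 3.57 and 3.47 at 0 weeks, 3.29, 3.46 and 3.46 after 12 weeks and 2.73, 2.81 and 3.02 after 60 weeks and fell by 0.64 ± 0.11. Mki67, the usual proliferation marker, had levels of 4.66, 4.68 and 4.43 at 0 weeks and 4.01, 4.52 and 4.32 at 60 weeks, a difference of -0.31 ± 0.17 (adjusted p = 0.204), with overlapping groups. Of 2 Ect2 promoters in the table, 1 that holds a match is shown, at chr3:27153829-27154128 on the minus strand of GRCm38.p6. Its letters TTTGAA of the cell cycle homology region are in capitals.
Ect2: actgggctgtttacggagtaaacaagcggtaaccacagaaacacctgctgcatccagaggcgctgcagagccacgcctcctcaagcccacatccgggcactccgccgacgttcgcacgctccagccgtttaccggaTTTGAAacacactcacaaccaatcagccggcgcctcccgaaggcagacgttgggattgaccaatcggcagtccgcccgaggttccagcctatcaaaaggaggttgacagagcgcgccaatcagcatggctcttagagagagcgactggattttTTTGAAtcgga
These letters, on either strand, were in 41 of 61 mitotic gene promoters in the table (67.2%) and in 1664 of 11202 of tested genes (14.9%). They were in 10 of 20 promoters of mitotic genes called lower (50%) and in 30 of 40 of those not called (75%).

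**Figure D5:**
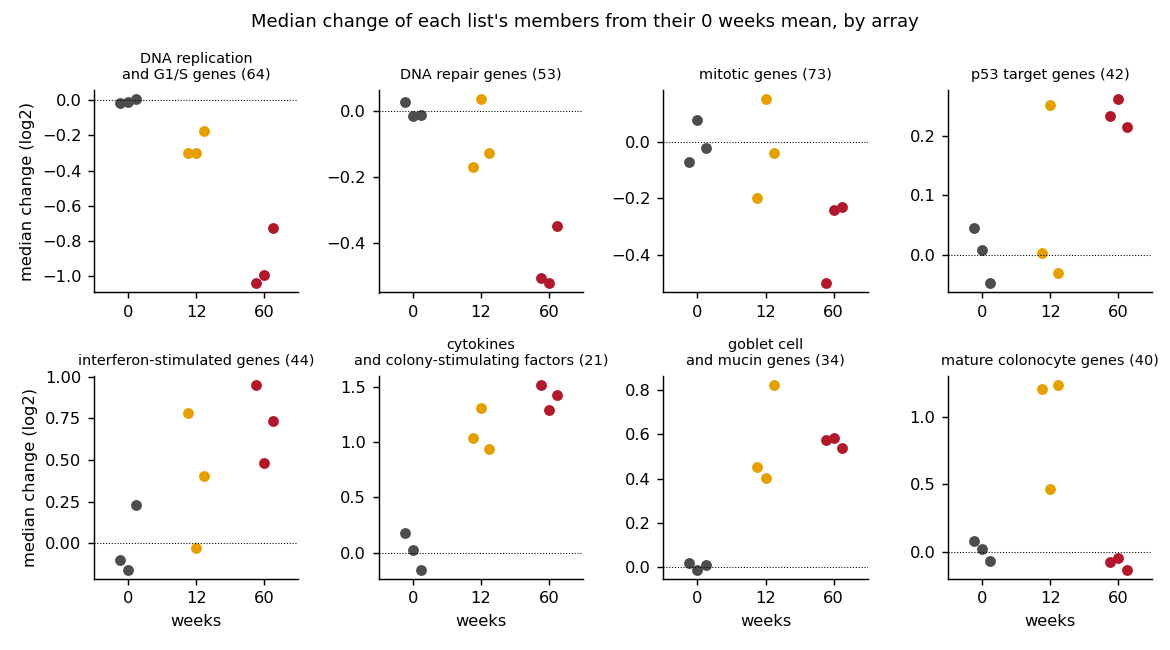
Median change of the members of 8 gene lists from their 0 weeks means (log2, vertical axes) on the 3 arrays of 0, 12 and 60 weeks (horizontal axes), with the number of tested members in each title. The DNA replication list lies at -1.04, -1.0 and -0.73 on the 60 weeks arrays and -0.30, -0.30 and -0.18 on those of 12 weeks.

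DNA repair genes were lower in 29 and higher in 1 of 53 cases, with a median of -0.50 (-0.68 to -0.39), and 22 of 40 lower outside the shifted chromosomes. The Fanconi anaemia genes Fanca, Fancb and Fanci, which serve the repair of interstrand crosslinks, fell by 1.05 ± 0.13, fell by 1.45 ± 0.15 and fell by 1.23 ± 0.11, respectively. Fanci had levels of 0.80, 0.85 and 0.94 at 0 weeks, 0.34, 0.52 and 0.65 after 12 weeks and -0.49, -0.27 and -0.33 after 60 weeks. Palb2, which bridges BRCA1 and BRCA2, fell by 1.02 ± 0.10, and Topbp1, which activates the ATR kinase, by 1.03 ± 0.12. Genes activated by p53 moved the other way in 17 of 42 cases with none lower (0 at an unadjusted p under 0.05), a median of 0.28 (0.19 to 0.29), and 9 of 32 outside the shifted chromosomes. Trp53inp2 and Trp53inp1, which act in autophagy and stress responses, rose by 1.78 ± 0.12 and 0.74 ± 0.12, the death receptor Fas by 1.33 ± 0.15, Plk3 by 0.87 ± 0.09 and the stress gene Sesn2 by 0.85 ± 0.13. The p53 inhibitor Mdm2 rose by 0.90 ± 0.12, and Mdm4 had its lowest levels at 12 weeks (-1.62, -1.51 and -1.85) and its highest at 60 weeks (-0.51, -0.27 and -0.37). Trp53 itself differed by 0.06 ± 0.12 (adjusted p = 0.722), and its main arrest target Cdkn1a by -0.09 ± 0.16 (adjusted p = 0.696), with levels of 5.42, 5.41 and 5.28 at 0 weeks and 5.19, 5.59 and 5.06 at 60 weeks. The senescence-associated inhibitor Cdkn2a lay at background on every array of 0 and 60 weeks and had levels of 2.53, 2.70 and 2.28 at 12 weeks, and the neighbouring Cdkn2b, named after its values were seen, did the same with 2.81, 2.97 and 2.60. Counts with the row as a block were 15 of the repair genes lower and 5 of the p53 target genes higher, and the calls of Mdm2 and Mdm4 were lost. The higher p53 target genes numbered 11 without 0 weeks replicate 3.

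Detoxifying enzymes fell in part. Of 37 conjugating enzymes 15 were lower (40.5%) and 7 higher (18.9%), against 16.1% and 16.7% of all genes. Their median was -0.46 (-0.54 to -0.08). The microsomal glutathione transferase Mgst2 had levels of 5.77, 5.78 and 6.21 at 0 weeks, 5.62, 5.60 and 5.71 after 12 weeks and 2.74, 2.80 and 2.79 after 60 weeks, with -0.28 at 12 weeks (adjusted p = 0.113) and -3.14 ± 0.13 at 60 weeks (adjusted p = 1.54e-06). Gsta3 and the glucuronosyltransferase Ugt2b34 had 12 weeks differences of 0.12 and 0.13 and 60 weeks differences of -2.45 ± 0.29 and -3.64 ± 0.33. Ugt1a10, which shares exons with Ugt1a6b and may share signal with it, was above background at 0 and 12 weeks and at background at 60 weeks, at least 6.98-fold lower. The sulfotransferase Sult2b1 fell by 1.61 ± 0.11 and Gstm1 by 2.23 ± 0.20, while Gstt1 rose by 3.94 ± 0.57. Of 45 antioxidant and aldo-keto reductase genes of the NRF2 response 16 were lower (35.6%) and 6 higher (13.3%). The factor's own gene Nfe2l2 had levels of 6.16, 6.19 and 6.36 at 0 weeks and 5.30, 5.12 and 5.24 at 60 weeks and fell by 1.02 ± 0.11. Carbonyl reductase (Cbr1) had levels of 7.05, 7.27 and 7.35 and 4.45, 4.57 and 4.63, and the aldehyde dehydrogenase Aldh3a1 8.09, 7.87 and 8.23 and 5.75, 5.57 and 5.98. Against this direction, the epithelial glutathione peroxidase Gpx2 rose by 1.70 ± 0.19. The fit with the row gave 8 of the conjugating enzymes lower and 0 higher and 5 of the NRF2-list genes lower and 0 higher, and lost the calls of Gstt1, Nfe2l2 and Gpx2. The higher conjugating enzymes numbered 4 and 3 without 0 weeks replicates 2 and 3 in turn, 12 without 12 weeks replicate 2 and 4 without 60 weeks replicates 1 or 3. The higher NRF2-list genes numbered 2 without 0 weeks replicate 2 and 3 without 60 weeks replicate 3.

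Of 30 cytochrome P450 genes 12 were lower and 3 higher. The xenobiotic-inducible Cyp2b10 had levels of 0.45, 0.09 and 0.01 at 0 weeks, 4.10, 3.88 and 3.69 after 12 weeks and 4.75, 4.64 and 5.06 after 60 weeks and rose by 4.64 ± 0.17. Cyp3a13 had levels of 0.46, 0.51 and 0.47, 1.27, 0.38 and 1.04 and -1.57, -1.67 and -1.42 and fell by 2.03 ± 0.21, with 60 weeks below both other groups, and its other probe gave -1.19. Cyp4v3, an omega-hydroxylase of fatty acids, was at background at 60 weeks, at least 3.72-fold lower, after -2.73, -3.27 and -2.63 at 0 weeks and -0.05, -1.10 and -0.30 at 12 weeks. Cyp26b1, which breaks down retinoic acid, fell by 1.72 ± 0.28, with still lower levels at 12 weeks (-4.08, -2.98 and -3.05). Under the row block the counts were 3 of the P450 genes lower. The higher P450 genes numbered 5 without 12 weeks replicate 2.

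Junction, protease and positional genes changed by member. Of 18 tight junction genes 8 were higher and 1, Cldn2, lower. The scaffold gene Tjp3 (ZO-3) rose by 0.90 ± 0.11 and differed by 0.23 at 12 weeks. The adherens junction gene Cdh1 differed by 0.34 ± 0.10 (adjusted p = 0.0304), a call lost under 7 alternatives. Of 24 matrix proteases and inhibitors 10 were higher and 2 lower, among them stromelysin 3 (Mmp11), with levels of 1.26, 1.27 and 1.14 at 0 weeks and 2.77, 2.75 and 2.66 at 60 weeks, and the plasminogen activator Plat, with 1.27, 1.38 and 1.24 and 3.96, 3.88 and 3.14. Besides Serpinb7, the serpins Serpinb11 and Serpina9 fell by 1.27 ± 0.12 and 4.13 ± 0.50. Of 23 Hox genes 7 were lower (30.4%) and 3 higher (13.0%), against 16.1% and 16.7% of all genes. Hoxa7 had levels of 1.78, 1.56 and 1.79 at 0 weeks, -0.96, -1.41 and -1.23 after 12 weeks and -2.89, -2.83 and -3.18 after 60 weeks, and Hoxa3 and Hoxa5 fell by 1.65 ± 0.18 and 1.52 ± 0.15, whereas Hoxb2 rose from -3.11, -3.33 and -3.05 to 0.47, 0.52 and 0.51. Hoxd10, at background at 0 and 12 weeks, was at least 5.81-fold higher at 60 weeks. Blocking on the row gave 1 of the tight junction genes higher and 3 of the matrix protease genes higher and 0 lower. The higher tight junction genes numbered 5, 5 and 4 without 0 weeks replicates 1, 2 and 3 in turn and 5 without 60 weeks replicate 1. The lower matrix protease genes numbered 1 without 0 weeks replicates 1 or 2 and 1 without 60 weeks replicates 1 or 2. The higher Hox genes numbered 5 without 12 weeks replicate 2.

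Of 31 transcription factors of intestinal identity 7 were higher (22.6%) and 5 lower (16.1%), near the shares of all genes, and outside the shifted chromosomes 2 of 20 were higher and 4 lower. The paralogs Gata4 and Gata6 differed in direction. Gata4, which marks the proximal small intestine, was above background on 1 of 3 arrays at 0 weeks, with levels of -4.54, -4.81 and -4.05, and reached -1.96, -2.31 and -1.81 after 12 weeks and 1.37, 1.33 and 1.39 after 60 weeks (log2 5.84 ± 0.20, adjusted p = 5.71e-07). Gata6, which the colon expresses, had levels of 2.75, 2.71 and 2.62, 2.38, 1.85 and 2.22 and -0.24, 0.03 and -0.38 and fell by 2.89 ± 0.16. Of the small intestine markers, Gata4 alone was bright enough to test. Lct and Fabp6 were at background on every array of both groups, Sis was above it on 1 array of each, and Defa24 had no named probe. The homeobox gene Isx, which represses carotene uptake, rose by 2.72 ± 0.15, and Foxa1 by 0.94 ± 0.12. Maf was lowest at 12 weeks (0.52, 0.86 and 0.44) and highest at 60 weeks (2.70, 2.85 and 2.84). Counts with the row as a block were 3 of the identity factors lower. The lower identity factors numbered 8 without 12 weeks replicate 2.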

How the data were processed

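Total RNA of 9 samples was measured on 1-colour Agilent arrays, 3 each at 0, 12 and 60 weeks. The deposited scanner files hold processed intensity values per spot, made with Feature Extraction 10.7.3.1 and protocol GE1_107_Sep09 per the file headers. Each array has 59305 spots and 55681 non-control probes, of which 27235 have 1 gene symbol, 0 several and 28446 none. Spots with outlier flags were left out (117 to 163 per array), and 0 were saturated. A deposited value table of 42530 rows holds signal values that equal the intensity divided by 1 constant per array, 0.992 to 0.996 times its 75th percentile. Its columns are therefore on a linear scale, not centred by gene, and not turned in direction; the rule behind the constant is not given in the sources used here. Column medians were 0.0668, 0.0719 and 0.0705 at 0 weeks, 0.0619, 0.0681 and 0.0733 after 12 weeks and 0.0673, 0.0695 and 0.0582 after 60 weeks. The table served as an alternative.

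From the deposited intensity, log2 minus the 75th percentile of an array's non-control probes was computed here. The brightest kept probe stood for a gene. A probe was kept where at least 1 group had 2 of 3 arrays above background and no value was missing on all 9 arrays after flagged spots were left out. This held for 14015 of 20660 genes. Among 3637 genes with several probes, 18 had probes called in both directions. The median SD over genes was 0.112 at 0 weeks and 0.149 at 60 weeks, and the number of arrays limits the precision. The model was limma 3.58.1 in R 4.3.3 over all 9 arrays without a block, with Benjamini-Hochberg adjustment over all tested genes. Every adjusted p in the text is from that model, which was tested on simulated data before use. Values after ± are standard errors of a log2 difference. Alternatives changed the background correction, scaling, filter on dim probes, probe rule, flags, value table, arrays in the model and blocks, and left out each array. Normexp used the median signal, since the files hold no mean signal, an alternative chosen after seeing the files.

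Genes named were the 15 largest rises and falls, the 10 newly detected and 10 lost with the highest bounds, up to 8 called members per list by adjusted p, all members of short lists, the usual reference gene, and a fixed panel. Some genes that the rule names are not reported here. The members and lists were chosen with earlier results of these data known. Promoter sequences are from RefSeq, assembly GRCm38.p6, while the array design in the file headers used an older build, so array coordinates were not used.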

Additional observations from a re-analysis of the deposited data

Results flagged for a closer look

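In 17 named genes the differences of 12 and of 60 weeks from 0 weeks were both called and had opposite signs, and the difference between 60 and 12 weeks was called as well. Both differences rest on the same 0 weeks arrays. Of these, 11 were higher at 12 weeks and lower at 60 weeks. Cathepsin C (Ctsc) differed by 0.77 at 12 weeks and fell by 8.06 ± 0.10 at 60 weeks, a change of -8.83 between these times (log2), and Fam149a by 1.83 and -7.29 ± 0.24, a change of -9.13. The Y chromosome helicase gene Ddx3y changed by -8.25 between 12 and 60 weeks, and the matrix peroxidase gene Pxdn by -6.62. For Cyp4v3, Ugt1a10 and Disp1, which were at background at 60 weeks, the changes were -6.32, -5.63 and -5.56, and Ctsc, Fam149a and Ddx3y were also at background there, so these sizes depend on dim values. Id3, Wnt5b, Wnt7a and Cd24a stayed above background, with changes of -2.72, -3.12, -2.56 and -2.14.

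Other genes were lower at 12 weeks and higher at 60 weeks. The chemokine gene Pf4 differed by -1.37 at 12 weeks and 2.75 ± 0.28 at 60 weeks, a change of 4.12. The oxidase subunit gene Ncf4 changed by 3.08, Maf by 2.19, H2-Q1 by 1.89 and Mdm4 by 1.28. Hoxd10 changed by 4.36, and since it was at background at both 0 and 12 weeks its lower value at 12 weeks lies between dim values. Of these genes, Pf4, Ncf4, H2-Q1, Mdm4, Id3 and Wnt7a had no call at 60 against 0 weeks with the row as a block.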

How the results depend on the processing

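Among named genes called in the main model or in the alternative concerned, no direction reversed. Changes of sign in genes called in neither were not counted. Background correction with normexp, chosen after seeing the files, gave 970 genes changed at least 2-fold, and only probes above background on all 9 arrays gave 1039 of the 12216 genes then tested, against 1625 of 14015. With the slide row as a block the model gave 1389 called genes, 700 higher and 689 lower. The same replicate numbers did not pair the samples: their deviations correlated at -0.01, 0.20 and 0.0003 between 0 and 60 weeks, and 1 of 3 arrays of 0 weeks correlated best with its own number. With the replicate number as a block 4453 genes were called. Leaving out 1 array gave 3214 to 6036 called genes, 1661 to 3009 higher and 1530 to 3027 lower. Other settings gave 3801 (no filter, 20628 genes tested) to 5824 (only the 6 arrays of 0 and 60 weeks) called genes, with 3874 of 12195 in the deposited value table. Of 233 named genes called, 37 lost the call with the row as a block, and 0 to 9 under any other alternative. The probes of Ceacam20, Mad2l1, Trp53inp1 and Wnt4 differed in size. Medians of several lists near 0, among them the CC chemokine, Wnt, stem cell, colonocyte and glycolysis lists, changed sign under at least 1 alternative. Signal near background limits the sizes of genes undetected in a group, for which only bounds are given.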

Other observations

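Metabolic genes changed by member at 60 weeks. Of 41 glycolysis and hypoxia genes 10 were called higher (24.4%) and 3 lower (7.32%), against 16.7% and 16.1% of all genes. Against 12 weeks 20 were higher and 1 lower. Besides Slc16a3, the list held the vasoactive peptide gene Adm, which rose by 4.33 ± 0.46, with levels of -1.62, -1.47 and -1.27 at 0 weeks, 1.5, 3.65 and 2.75 after 12 weeks and 2.92, 3.19 and 2.52 after 60 weeks. Pfkfb3, which makes an activator of glycolysis, rose by 2.01 ± 0.12, and the oxygen-sensing factor Hif1a, at 1.5, 1.44 and 1.58, 2.45, 2.09 and 2.40 and 2.49, 2.52 and 2.52, by 1.0 ± 0.11. Of 38 fatty acid oxidation and ketogenesis genes 6 were higher (15.8%, near the share of all genes) and 13 lower (34.2%). The peroxisomal enzyme gene Ehhadh was at background at 0 weeks and was then at least 9.86-fold higher at 60 weeks, with -0.82, -0.93 and -1.04 after 12 weeks and -1.46, -1.58 and -1.28 after 60 weeks. Bdh1, of ketone body metabolism, rose by 1.90 ± 0.14. The dehydrogenase gene Acadm fell by 0.87 ± 0.12 and the electron carrier genes Etfa and Etfb by 0.74 ± 0.10 and 0.70 ± 0.13. Of 76 nuclear genes of oxidative phosphorylation 1 was higher (1.32%) and 9 lower (11.8%), below the 16.7% and 16.1% of all genes. The fit with the row gave 5 of the glycolysis genes higher and 1 lower, 0 of the fatty acid oxidation genes lower and 2 of the oxidative phosphorylation genes lower, and lost the calls of Acadm, Etfa and Etfb. The lower glycolysis genes numbered 1 without 0 weeks replicates 1 or 2 or 3, 6 without 12 weeks replicate 2 and 1, 5 and 1 without 60 weeks replicates 1, 2 and 3 in turn. The higher fatty acid oxidation genes numbered 3 without 0 weeks replicates 1 or 2. The lower fatty acid oxidation genes numbered 8 without 0 weeks replicate 3. The lower oxidative phosphorylation genes numbered 3 and 2 without 0 weeks replicates 2 and 3 in turn, 17 without 12 weeks replicate 2 and 2 and 3 without 60 weeks replicates 1 and 2 in turn.

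Of 35 chromatin and DNA methylation enzymes 2 were higher and 8 lower (22.9% against 16.1% of all genes). Uhrf1, which brings DNA methyltransferase 1 to replicated DNA, had levels of 3.92, 3.94 and 3.97 at 0 weeks, 3.64, 3.29 and 3.68 after 12 weeks and 2.67, 2.93 and 3.18 after 60 weeks, and Dnmt1 itself had 1.65, 1.49 and 1.37, 0.70, 0.94 and 1.01 and 0.66, 0.81 and 0.94 and fell by 0.70 ± 0.13. Among 45 genes of fetal-like and regenerating epithelium 16 were higher (35.6%) and 7 lower (15.6%), with a median of 0.26 (0.18 to 0.30). The annexin gene Anxa10 was at background at 0 weeks and was then at least 11.7-fold higher at 60 weeks, with 1.32, 0.77 and -0.05 after 12 weeks and -1.0, -1.30 and -1.28 after 60 weeks. The collagen receptor chain Itga2 rose by 2.71 ± 0.22, and the liver and intestine factor Onecut2 fell by 4.35 ± 0.23. Of 25 Notch pathway genes 2 were higher (8%) and 5 lower (20%), against 16.7% and 16.1% of all genes. The receptor gene Notch1 rose by 1.44 ± 0.40, with -2.34, -2.04 and -1.62 at 0 weeks, -2.03, -1.94 and -0.56 after 12 weeks and -0.67, -0.10 and -0.90 after 60 weeks, while Notch3 and the ligand gene Dll1 fell by 1.16 ± 0.30 and 1.37 ± 0.16. The calls of Notch1 and Notch3 were lost under 5 and 7 alternatives. Under the row block the counts were 0 of the chromatin enzymes higher and 1 lower, 4 of the fetal-like genes higher and 3 lower and 1 of the Notch genes higher and 2 lower, and the calls of Uhrf1 and Dll1 were lost. The higher chromatin enzymes numbered 1 without 0 weeks replicates 1 or 2 or 3 and 1 without 60 weeks replicate 3. The lower chromatin enzymes numbered 5 without 0 weeks replicates 1 or 2 and 4 without 60 weeks replicate 1. The higher fetal-like genes numbered 10 without 0 weeks replicates 1 or 3. The lower fetal-like genes numbered 4 without 0 weeks replicate 2. The higher Notch genes numbered 4 without 12 weeks replicate 2 and 1 without 60 weeks replicates 1 or 2. The lower Notch genes numbered 1, 2 and 2 without 0 weeks replicates 1, 2 and 3 in turn and 1, 3 and 2 without 60 weeks replicates 1, 2 and 3 in turn.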
